A study of Mus musculus with 12 samples.

Results

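Perp, a membrane protein gene activated by p53, was measured in 4 mouse embryonic stem (ES) cell lines that differ in their copies of Rex1 (Zfp42), together with p53 itself and 7 further genes of its pathway. The genes were taken by name: every gene probe called Perp, Trp53, Cdkn1a, Mdm2, Ccng1, Bax, Gadd45a, Sesn1 or Btg2. By the gene names in the array files 7 probes of 6 genes were found, and 3 more were reached through older names (PA26 for Sesn1, and Ccng, described as cyclin G, for Ccng1). This gave 10 probes of 8 of the 9 genes, out of 20280 gene probes and 7122 gene names on the array. Perp, Trp53, Cdkn1a, Mdm2, Bax and Sesn1 had 1 probe each, Ccng1 and Btg2 had several, and Gadd45a was not matched to a probe name.

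The transcription factor p53 is held low by the ubiquitin ligase Mdm2, is freed from it after DNA damage and other stress, and then switches on genes that stop the cell cycle, repair DNA or start cell death. Mdm2 is itself a target, which closes a feedback loop. Perp (p53 apoptosis effector related to Pmp22) belongs to a family of membrane proteins that span the membrane several times, was found as a p53 target in dying cells, and is also a part of desmosomes, the junctions that hold epithelial cells together. ES cells of the mouse hold much p53 and are known for an unusual coupling of p53 to differentiation.

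EB5 is the wild-type line (Rex1+/+), derived from E14tg2a cells. RKPG9 is 1 heterozygous clone (Rex1+/-), in which the start of the Rex1 reading frame in 1 allele was replaced by a cassette joining puromycin resistance (pac) and Egfp. HP3 and HP4 are homozygous lines (Rex1-/-) obtained from RKPG9 under high-dose puromycin, so that every mutant line carries the pac-Egfp cassette and all descend from 1 clone. Each line was hybridised to 3 arrays with its RNA in Cy3 against Universal Mouse Reference RNA, a pool from several cultured cell lines, in Cy5. Whether a line's 3 arrays came from separate cultures is not given, and p-values then measure only the spread between arrays. Values are log2 ratios of Cy3 to Cy5, so that 0 means a level equal to the reference RNA, and "passed" means an adjusted p under 0.05 in limma, over all probes. The EB5 arrays were extracted from their scans in another session, with background correction switched on in the software, than the 9 arrays of the mutant lines, so that a difference from EB5 cannot be told apart from that session. Comparisons against RKPG9 lie within 1 session.

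The share of gene probes well above background in Cy3 ran from 92.2% to 94.5% on EB5 arrays, 89.3% to 89.9% on RKPG9, 87.1% to 89.4% on HP3 and 85.3% to 86.1% on HP4, the dimmest line. Of the 9 ES cell markers 7 had a probe (Pou5f1, Nanog, Esrrb, Klf4, Utf1, Fgf4 and Dppa5a), and each was well above background on every array of every line. Their mean log2 ratios ran from -0.06 (Fgf4 in HP4) to 4.43 (in RKPG9), with medians over the markers of 2.07 (EB5), 2.23 (RKPG9), 2.43 (HP3) and 2.02 (HP4). No spot of the 10 probes was saturated or left out as an outlier.

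Perp was highest in wild-type EB5, intermediate in heterozygous RKPG9 and lowest in both Rex1-/- lines. Its log2 ratio was 0.49, 0.52 and 0.56 on the EB5 arrays. In RKPG9 it was 0.04, 0.09 and 0.04. In HP3 it was -0.60, -0.64 and -0.58, and in HP4 it was -0.54, -0.54 and -0.56. The 3 arrays of a line lay close together, and EB5, RKPG9 and the Rex1-/- lines did not overlap. The means were 0.53 ± 0.04 (SD, n = 3) for EB5, 0.05 ± 0.03 for RKPG9, -0.61 ± 0.03 for HP3 and -0.55 ± 0.01 for HP4.

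**Figure D1:**
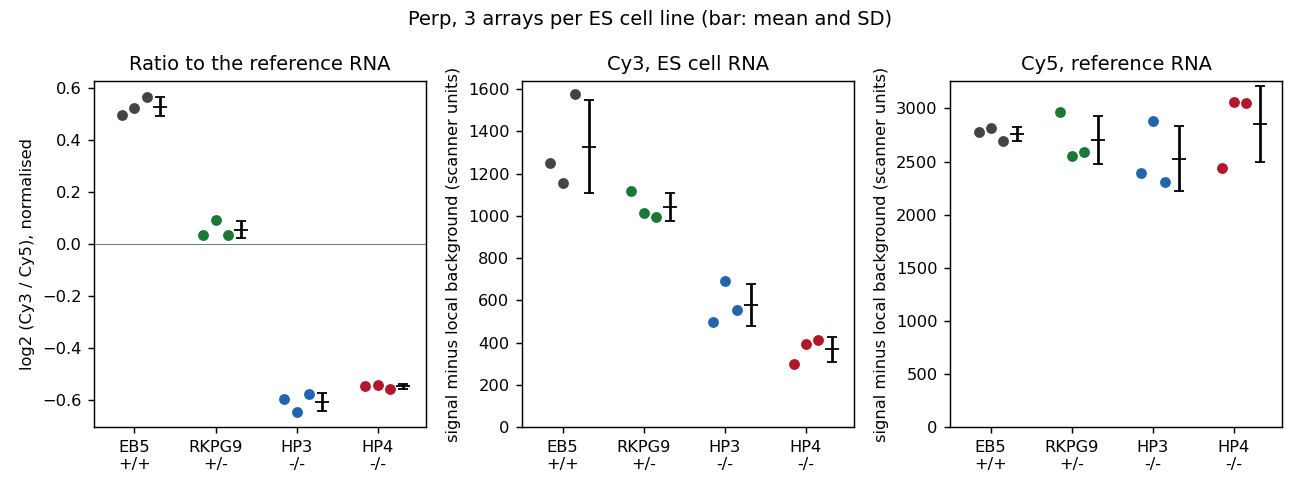
Perp on the 12 arrays: the normalised log2 ratio of ES cell RNA (Cy3) to reference RNA (Cy5) on the left, and the Cy3 and Cy5 signals less local background, in scanner units before normalisation, in the middle and on the right. Points are arrays and bars are the mean and SD of 3 arrays; the log2 ratio steps down from about 0.53 in EB5 to 0.05 in RKPG9 and to -0.61 and -0.55 in HP3 and HP4, while the Cy5 signal of the reference shows no such steps.

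Against EB5, Perp fell by 1.13 ± 0.03 (SE) on the log2 scale in HP3, or 2.19-fold (limma adjusted p = 1.4e-09), and by 1.07 ± 0.03 in HP4, or 2.10-fold (adjusted p = 1.9e-09). In RKPG9 it fell by 0.47 ± 0.03, or 1.39-fold (adjusted p = 7.2e-07). Within the session of the mutant lines, Perp fell by 0.66 ± 0.03 from RKPG9 to HP3 (1.58-fold, adjusted p = 8e-08) and by 0.60 ± 0.03 from RKPG9 to HP4 (1.52-fold, adjusted p = 1.1e-07). HP3 and HP4 are the neighbours in this order that did not differ beyond the test: HP4 less HP3 was 0.06 (95% interval -0.01 to 0.13, adjusted p = 0.20). Perp stands on a list that the study drew from these same arrays for the HP3 to EB5 difference, so that difference is not independent evidence.

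The raw Cy3 signal of the Perp spot, before normalisation, was also lower from line to line. It read 1556 to 1972 scanner units in EB5, 1400.15 to 1519 in RKPG9, 899 to 1093 in HP3 and 694 to 810.1 in HP4, over a local background of 393 to 404. The Cy5 signal of the reference RNA at the same spot ran from 2693 to 3438 over all 12 arrays. The Perp spot was well above background on every array in both channels. Median Cy3 over all gene probes also ran lower from line to line. It was 547 to 577 in EB5, 541 to 546 in RKPG9, 520 to 545 in HP3 and 481 to 487 in HP4. The raw Perp steps are not corrected for this, and the lower raw signal of HP4 than HP3 is absent from the log2 ratios.

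Seen against all probes, Perp had the 28th lowest change of 20234 probes in HP3 against EB5 and the 48th lowest of 20240 in HP4 against EB5. In RKPG9 against EB5 it was the 611th lowest of 20239. Within the session it was the 96th lowest of 20273 in HP3 and the 298th lowest of 20278 in HP4, both against RKPG9.

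The 5 Perp changes that passed kept their direction and passed under all 17 alternatives run for each. Some of these alternatives cannot change the estimate, as given in the last section. Without loess, with each array centred on its median only, the fall in HP4 was larger, at 1.64 against EB5 and 1.14 against RKPG9, and HP4 less HP3 became -0.37 (adjusted p = 0.00032). The cause of that shift was not tested. Leaving out any 1 array moved none of the 6 Perp changes by more than 1.5 times.

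**Figure D2:**
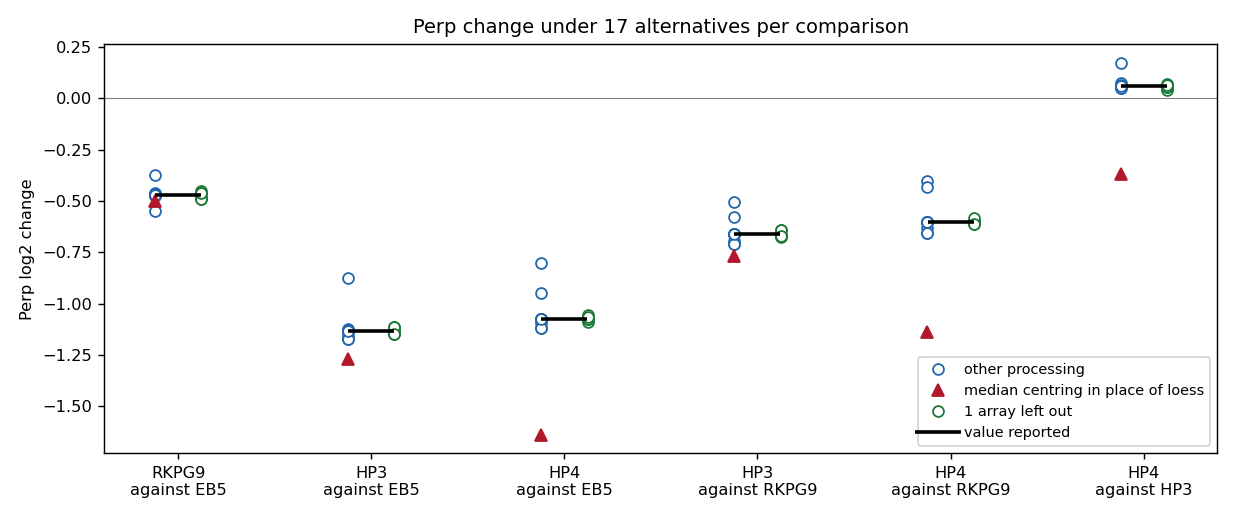
The Perp log2 change in each comparison as reported (black bar) and under 17 alternatives: open blue circles are other processing choices, red triangles are median centring in place of loess, and green circles leave out 1 array. All alternatives of the 5 comparisons with EB5 or RKPG9 lie below 0; HP4 against HP3 runs from -0.37 to 0.17.

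Trp53, the gene of p53 itself, differed little between the lines. Its log2 ratio was 0.18, 0.04 and 0.05 in EB5 and 0.13, 0.14 and 0.14 in RKPG9. It was 0.05, 0.09 and 0.05 in HP3 and 0.31, 0.16 and 0.20 in HP4. The HP3 arrays lay inside the EB5 range and the HP4 arrays reached above it. The difference from EB5 was -0.03 ± 0.05 (SE) in HP3 (adjusted p = 0.68, 95% interval -0.13 to 0.07; -0.23 in the Cy3 channel alone, adjusted p = 0.046) and 0.05 ± 0.05 in RKPG9 (adjusted p = 0.45). Trp53 rose in HP4 against EB5 by 0.13 ± 0.05 (adjusted p = 0.032) and against HP3 by 0.16 ± 0.05 (adjusted p = 0.021). The first call was lost without EB5 replicate 2 (0.11, adjusted p = 0.11) or 3 (0.11, adjusted p = 0.11) and without HP4 replicate 1 (0.09, adjusted p = 0.11) or 3 (0.14, adjusted p = 0.052). The second was lost without HP3 replicate 1 (0.15, adjusted p = 0.057) or 3 (0.16, adjusted p = 0.062) and without HP4 replicate 1 (0.12, adjusted p = 0.071). In the Cy3 channel alone and without background subtraction neither passed. The first was also lost in the deposited table (0.18, adjusted p = 0.060) and from the processed signals (0.18, adjusted p = 0.058). With only the compared lines fitted it did not pass (adjusted p = 0.099). The second was also lost under median centring (0.13, adjusted p = 0.051).

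Mdm2, which marks p53 for destruction and is switched on by it, was lower in HP4 than in the other lines. Its log2 ratio was 0.78, 0.57 and 0.73 in EB5 and 0.60, 0.54 and 0.58 in RKPG9. It was 0.57, 0.60 and 0.61 in HP3 and 0.35, 0.41 and 0.46 in HP4. The HP4 arrays lay below every other array. Mdm2 fell in HP4 by 0.29 ± 0.05 (SE) against EB5 (adjusted p = 0.00077), by 0.17 ± 0.05 against RKPG9 (adjusted p = 0.019) and by 0.19 ± 0.05 against HP3 (adjusted p = 0.015). HP3 differed from EB5 by -0.10 ± 0.05 (adjusted p = 0.17) and RKPG9 by -0.12 ± 0.05 (adjusted p = 0.090). Both passed without EB5 replicate 2 (-0.16, adjusted p = 0.018, and -0.18, adjusted p = 0.0071) and under median centring (-0.20, adjusted p = 0.017, and -0.18, adjusted p = 0.032). In the Cy3 channel alone the 3 HP4 differences were -0.06, -0.06 and -0.08 and none passed. The difference from RKPG9 was also lost without HP4 replicate 1 (-0.14, adjusted p = 0.065) and RKPG9 replicate 1 (-0.16, adjusted p = 0.061) or 3 (-0.16, adjusted p = 0.051), and that from HP3 without HP3 replicate 3 (-0.18, adjusted p = 0.051) or HP4 replicate 1 (-0.16, adjusted p = 0.054).

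The start regions of the 8 other rule genes, listed by RefSeq (build GRCm38.p6) as 10 windows of 300 bases from 250 before to 50 after a gene start, were searched for the p53 half-site, the decamer consensus bound by each pair of p53 subunits, which reads the same on both strands. Perp had no window in the listing used and was not searched. At least 1 half-site stood in 7 of the 10 windows, and in 8.36% of all 32851 windows listed. A pair of half-sites no more than 13 bases apart stood in 1 of the 10, the upstream start of Cdkn1a, and in 0.0731% of all windows. The windows of Cdkn1a (chr17:29090729-29091028, plus strand), Ccng1 (chr11:40755237-40755536, minus strand) and Bax (chr7:45466849-45467148, minus strand) are printed as targets that changed against EB5 and held a half-site, shown in capitals. Btg2 also changed against EB5 at its brighter probe, but its window held no half-site. Mdm2 fell in HP4 and held 1, and its window is not printed. Only exact matches to the consensus were marked. The 10 bases right after the second capital stretch of Cdkn1a miss the consensus by 1 base and are in small letters. The matches are letters in a window and were not tested for binding.
Cdkn1a: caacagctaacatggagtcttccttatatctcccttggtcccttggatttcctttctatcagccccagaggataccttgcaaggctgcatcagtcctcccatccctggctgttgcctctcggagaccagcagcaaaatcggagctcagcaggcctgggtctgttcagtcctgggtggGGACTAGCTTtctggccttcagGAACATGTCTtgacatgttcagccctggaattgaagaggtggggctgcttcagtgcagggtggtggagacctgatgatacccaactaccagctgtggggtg
Ccng1: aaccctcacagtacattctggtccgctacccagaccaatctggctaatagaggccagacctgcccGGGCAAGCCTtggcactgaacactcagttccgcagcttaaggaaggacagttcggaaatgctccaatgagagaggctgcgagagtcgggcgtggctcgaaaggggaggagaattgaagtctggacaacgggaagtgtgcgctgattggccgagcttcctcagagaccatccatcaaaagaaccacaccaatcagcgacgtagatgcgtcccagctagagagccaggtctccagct
Bax: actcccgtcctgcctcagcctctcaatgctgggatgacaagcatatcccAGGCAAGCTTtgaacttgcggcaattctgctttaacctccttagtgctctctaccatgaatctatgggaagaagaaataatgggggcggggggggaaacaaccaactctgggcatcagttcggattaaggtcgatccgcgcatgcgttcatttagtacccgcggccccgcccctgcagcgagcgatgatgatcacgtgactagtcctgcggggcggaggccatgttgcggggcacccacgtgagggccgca

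Cdkn1a, the p21 inhibitor of cyclin-dependent kinases through which p53 arrests the cell cycle, and whose window above held the pair of half-sites, was lower in all 3 mutant lines than in EB5. Its log2 ratio was -1.15, -1.17 and -1.32 in EB5 and -1.65, -1.67 and -1.65 in RKPG9. It was -1.56, -1.76 and -1.79 in HP3 and -1.57, -1.57 and -1.55 in HP4. All EB5 arrays lay above all arrays of the mutant lines, which lay close to each other. Against EB5, Cdkn1a fell by 0.49 ± 0.06 (SE) in HP3 (1.40-fold, adjusted p = 9.9e-05), by 0.45 ± 0.06 in RKPG9 (adjusted p = 0.00011) and by 0.35 ± 0.06 in HP4 (adjusted p = 0.00065). Within the session, HP3 less RKPG9 was -0.04 (95% interval -0.17 to 0.09, adjusted p = 0.70) and HP4 less RKPG9 was 0.10 (-0.03 to 0.23, adjusted p = 0.22), which median centring turned to -0.35 (adjusted p = 9.8e-05). Without background subtraction HP4 less RKPG9 passed the other way, at 0.28 (adjusted p = 0.00059). In the Cy3 channel alone none of the 3 differences from EB5 passed, at -0.04 in HP3, -0.09 in RKPG9 and -0.20 in HP4; without background subtraction the HP4 difference was -0.02 (adjusted p = 0.80).

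Ccng1, cyclin G1, a p53 target that acts with Mdm2, was lowest in RKPG9 at both of its probes. At the brighter probe (A_65_P01301) the log2 ratio was 0.85, 0.86 and 0.86 on EB5 arrays and 0.36, 0.35 and 0.34 on RKPG9 arrays. It was 0.77, 0.80 and 0.81 in HP3 and 0.60, 0.78 and 0.76 in HP4. The RKPG9 arrays stood apart below all others. Ccng1 fell in RKPG9 against EB5 by 0.51 ± 0.04 (SE, adjusted p = 2.9e-06) at this probe and by 0.30 ± 0.05 (adjusted p = 0.00044) at the other (A_65_P14228). Against RKPG9 it rose in HP3 by 0.44 ± 0.04 (adjusted p = 1.2e-05) and 0.21 ± 0.05 (adjusted p = 0.0063) at the 2 probes, and in HP4 by 0.36 ± 0.04 (adjusted p = 3.8e-05) and 0.23 ± 0.05 (adjusted p = 0.0025), with the median-centred HP4 values at 0.01 and -0.13, neither of which passed. Other calls lost were HP3 against RKPG9 at the brighter probe in the Cy3 channel alone (0.19, adjusted p = 0.19) and at the other probe under median centring (0.12, adjusted p = 0.30), and HP4 against RKPG9 at the other probe without background subtraction (0.02, adjusted p = 0.68). Against EB5, HP3 differed by -0.07 and -0.08 at the 2 probes and neither passed, though both did under median centring (-0.19, adjusted p = 0.025, and -0.23, adjusted p = 0.024). As fitted, HP4 fell by 0.14 (adjusted p = 0.017) at the brighter probe only, with 0.015 in the Cy3 channel alone, and the call was also lost with an offset of 0 and from the processed signals. The other probe in HP4 passed as lower under median centring (-0.47, adjusted p = 3.8e-05) and without background subtraction (-0.17, adjusted p = 0.005). In the Cy3 channel alone it passed as higher (0.23, adjusted p = 0.007).

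Btg2, an antiproliferative p53 target, was lower in the mutant lines than in EB5 at its brighter probe (A_65_P14971). There the log2 ratio was -0.60, -0.51 and -0.57 in EB5 and -0.85, -0.82 and -0.81 in RKPG9. It was -0.78, -0.81 and -0.83 in HP3 and -0.69, -0.71 and -0.80 in HP4. All EB5 arrays lay above the rest. Btg2 fell against EB5 by 0.25 ± 0.04 (SE) in HP3 (adjusted p = 0.00042), by 0.27 ± 0.04 in RKPG9 (adjusted p = 0.00016) and by 0.18 ± 0.04 in HP4 (adjusted p = 0.0027). Neither HP3 nor HP4 passed against RKPG9, at 0.02 (adjusted p = 0.78) and 0.09 (adjusted p = 0.069), the latter -0.36 under median centring (adjusted p = 6.3e-05) and 0.13 without background subtraction (adjusted p = 0.00032). The dimmer probe (A_65_P03522), which the array describes only as similar to Btg2, ran from -0.46 to -0.28. It was well above background in Cy3 on 1 of 3 arrays in each of HP3 and HP4. Its differences from EB5 there, -0.04 and -0.03, are limited by that signal. In the deposited table they were -0.63 and -0.56, and both passed. In RKPG9 the difference was -0.11 and passed (adjusted p = 0.020), a call lost in 10 of 17 alternatives, some of them with 1 array left out. Without background subtraction the HP4 difference at the brighter probe was -0.01 (adjusted p = 0.75), and in the Cy3 channel alone it was -0.24 (adjusted p = 0.077).

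Bax, which opens the outer mitochondrial membrane in apoptosis, was lower in every mutant line than in EB5. Its log2 ratio was 1.66, 1.71 and 1.70 in EB5 and 1.38, 1.30 and 1.30 in RKPG9. It was 1.52, 1.51 and 1.51 in HP3 and 1.57, 1.45 and 1.45 in HP4. EB5 lay highest, RKPG9 lowest and both Rex1-/- lines between them without overlap. Bax fell against EB5 by 0.36 ± 0.04 (SE) in RKPG9 (adjusted p = 2.7e-05), by 0.17 ± 0.04 in HP3 (adjusted p = 0.0064) and by 0.20 ± 0.04 in HP4 (adjusted p = 0.0019). Against RKPG9 it rose by 0.19 ± 0.04 in HP3 (adjusted p = 0.0048) and by 0.16 ± 0.04 in HP4 (adjusted p = 0.0069), where median centring turned the HP4 value to -0.43 (adjusted p = 5.5e-05) and left HP3 at 0.08 (adjusted p = 0.44). In the Cy3 channel alone HP3 and HP4 differed from EB5 by -0.0021 and 0.08, and neither passed. HP4 against RKPG9 was 0.04 without background subtraction (adjusted p = 0.31).

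Sesn1, a sestrin that restrains the growth regulator mTORC1 under stress, passed in none of the 6 comparisons as fitted. Its log2 ratio was -0.87, -0.77 and -0.71 in EB5 and -0.84, -0.88 and -0.95 in RKPG9. It was -0.78, -0.96 and -0.74 in HP3 and -0.71, -0.78 and -0.70 in HP4. The lines overlapped, other than HP4 and RKPG9. The largest difference was HP4 less RKPG9, 0.16 ± 0.06 (SE, adjusted p = 0.050, not under the threshold), and the smallest HP3 less EB5, -0.05 ± 0.06 (95% interval -0.17 to 0.08). HP4 less RKPG9 passed with dim probes filtered out (adjusted p = 0.045), under median centring (0.23, adjusted p = 0.012), without background subtraction (0.11, adjusted p = 0.0016) and with only the compared lines fitted (adjusted p = 0.028), but was at -0.14 in the Cy3 channel alone and -0.11 with an offset of 0. RKPG9 less EB5 passed under median centring (-0.23, adjusted p = 0.032), and HP4 passed against EB5 (0.063, adjusted p = 0.046) and HP3 (0.072, adjusted p = 0.028) without background subtraction. HP3 less EB5 was -0.30 from the processed signals, just past the threshold.

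**Figure D3:**
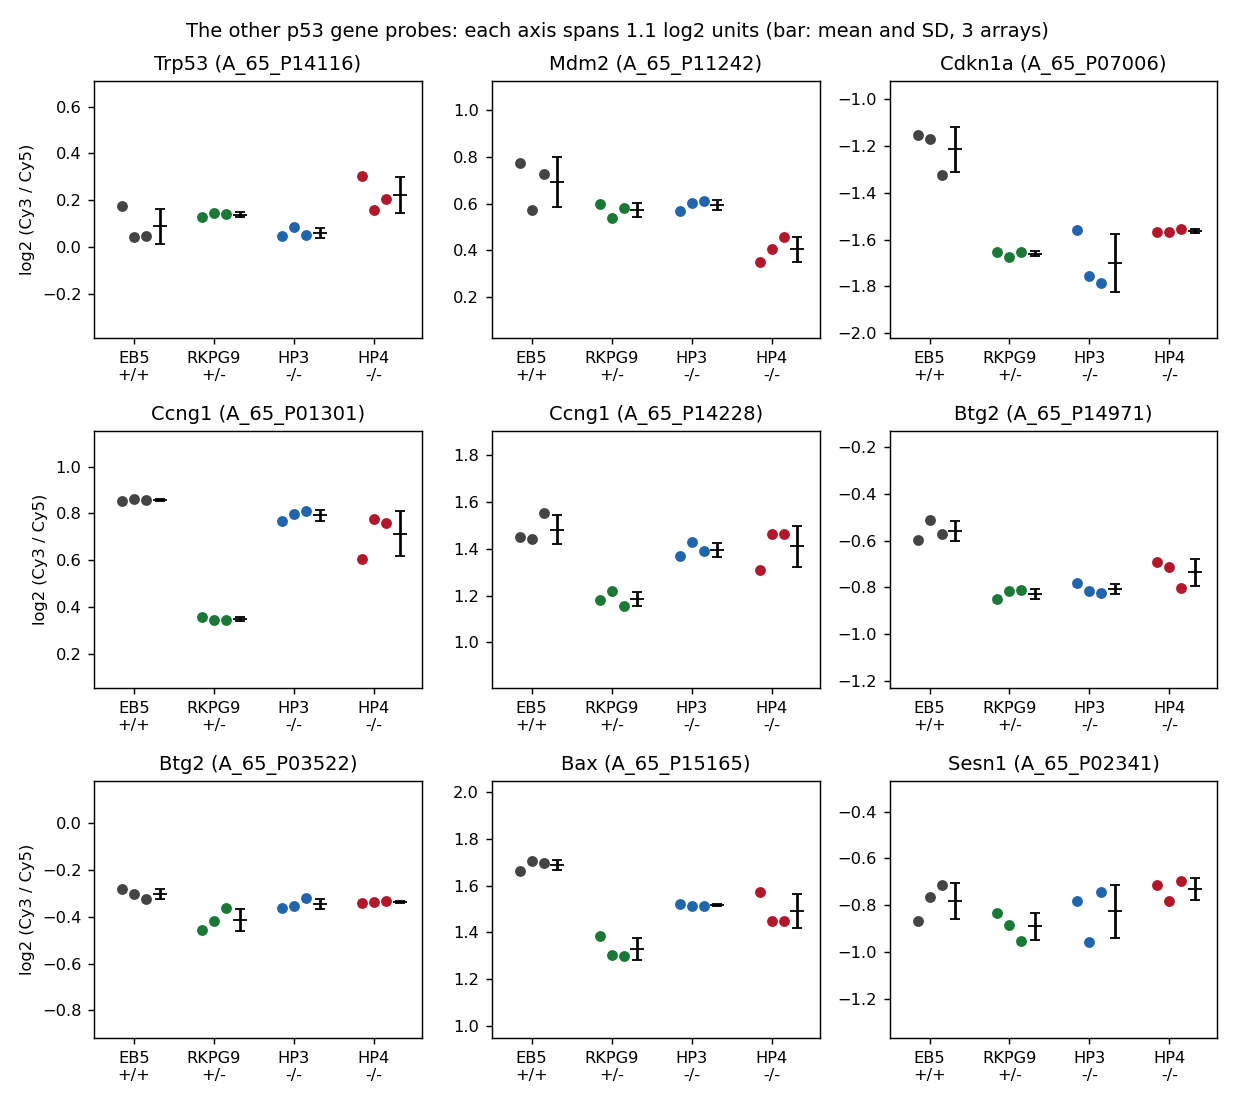
The log2 ratio of the 9 probes other than Perp on each of the 12 arrays; points are arrays, bars are the mean and SD of 3 arrays, and every vertical axis spans 1.1 log2 units. RKPG9 lies lowest at both Ccng1 probes and Bax, EB5 highest at Cdkn1a, HP4 lowest at Mdm2, and Trp53 and Sesn1 differ little.

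Of the 10 probes, 4 passed in HP3 against EB5 and all 4 were lower, where 30.5% of all probes tested passed. In HP4 against EB5, 7 passed, 6 lower and Trp53 higher, against 44.9% of all probes. In RKPG9 against EB5, 7 passed and all were lower, against 34.2%. Within the session, 4 of 10 passed in HP3 against RKPG9 (Perp lower; Bax and both Ccng1 probes higher), where 22.7% of all probes did. In HP4 against RKPG9, 5 passed (Perp and Mdm2 lower; Bax and both Ccng1 probes higher), against 40.0%. In HP4 against HP3, 2 passed (Trp53 higher and Mdm2 lower), against 28.5%.

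Passing as well by more than 2-fold was rare on these arrays, and Perp was the member that did. It was 1 of 10 probes in HP3 against EB5, where 0.217% of all probes did, and 1 of 10 in HP4 against EB5, against 0.301%. The study listed Perp in HP3 against EB5 by a rule of this kind from these arrays, and HP4 is compared with the same EB5 arrays. Neither count is therefore independent evidence. Without background subtraction the Perp falls were 0.88 in HP3 and 0.80 in HP4, under 2-fold, as was the HP4 fall of 0.95 in the Cy3 channel alone. None of the 10 did so in RKPG9 against EB5 (0.524% of all probes), HP3 against RKPG9 (0.281%), HP4 against RKPG9 (0.380%) or HP4 against HP3 (0.0247%).

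**Figure D4:**
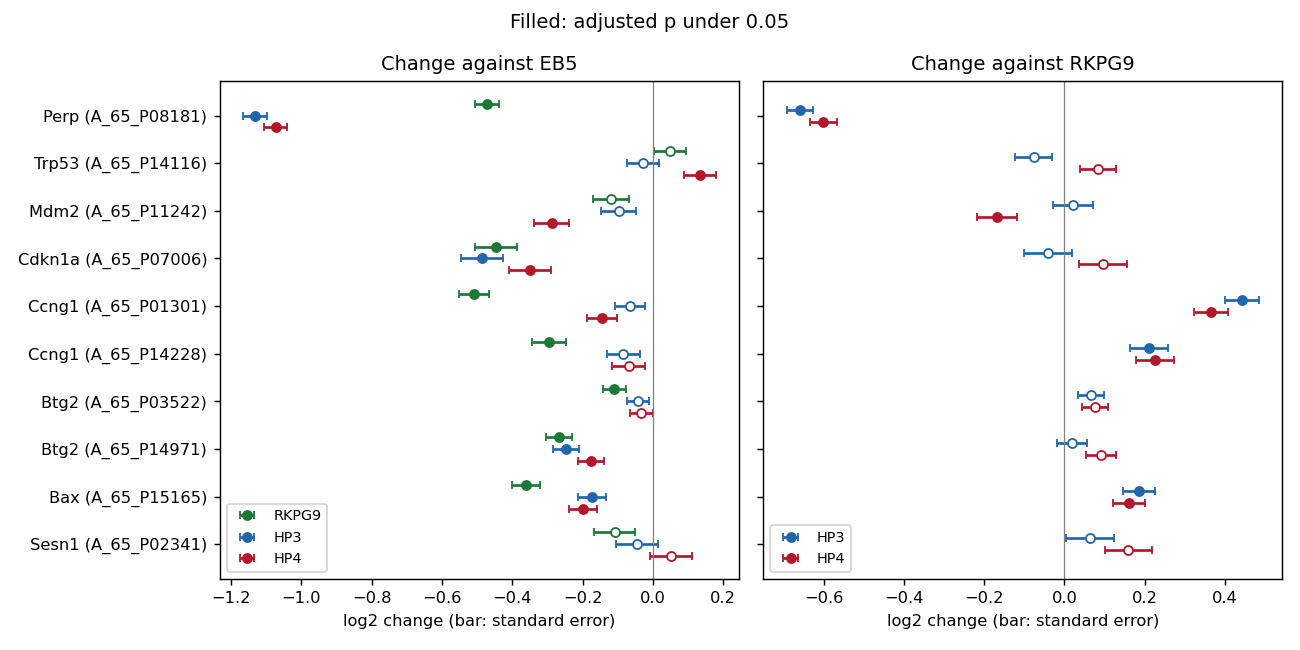
Log2 changes of the 10 probes against EB5 (left) and against RKPG9 (right); points are limma estimates, bars standard errors, and filled points passed an adjusted p of 0.05. Perp lies far to the left of the other probes for HP3 and HP4 in both panels, at -1.13 and -1.07 against EB5 and -0.66 and -0.60 against RKPG9.

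Lists of p53 regulators and targets held 84 genes, of which 49 had a probe, 47 of them well above background in Cy3 on all 12 arrays. Of the 49, 11 were higher and 14 lower in HP3 against EB5, with a median log2 change of -0.05 beside -0.02 over all probes, of which 30.5% passed (2314 higher and 3862 lower). In HP4 against EB5 the counts were again 11 higher and 14 lower, with a median of 0.0075 (all probes -0.02, with 44.9% passing, 3728 higher and 5359 lower). In RKPG9 against EB5, 6 were higher and 24 lower, with a median of -0.16 (all probes -0.02, with 34.2% passing, 2540 higher and 4380 lower). Under median centring the splits were 2 higher and 19 lower in HP3, 3 and 36 in HP4, and 3 and 26 in RKPG9.

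Against RKPG9, 18 of the 49 were higher and 3 lower in HP3, with a median of 0.07 beside 0.0035 over all probes, of which 22.7% passed (2565 higher and 2046 lower). There Perp, Pcna (the sliding clamp of DNA replication, -0.22) and Ddb2 (a DNA damage sensor, -0.19) were the 3 lower. In HP4, 22 were higher and 6 lower, with a median of 0.11 (all probes 0.0085, with 40.0% passing, 4246 higher and 3872 lower), but median centring turned this split to 10 higher and 25 lower; in HP3 it gave 11 and 2. Perp had the lowest change of all 49 genes in both comparisons, and the next lowest was Pcna, at -0.22 in HP3 and -0.41 in HP4. The highest was Ddit4, a stress-induced inhibitor of mTORC1 named here after its values were seen, which fell by 1.02 in RKPG9 against EB5 and rose against RKPG9 by 0.85 in HP3 and 0.83 in HP4. In HP4 against HP3, 11 of the 49 were higher and 7 lower, with a median of 0.02, where 28.5% of all probes passed (2791 higher and 2982 lower); median centring gave 6 and 31 and the Cy3 channel alone 4 and 1.

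**Figure D5:**
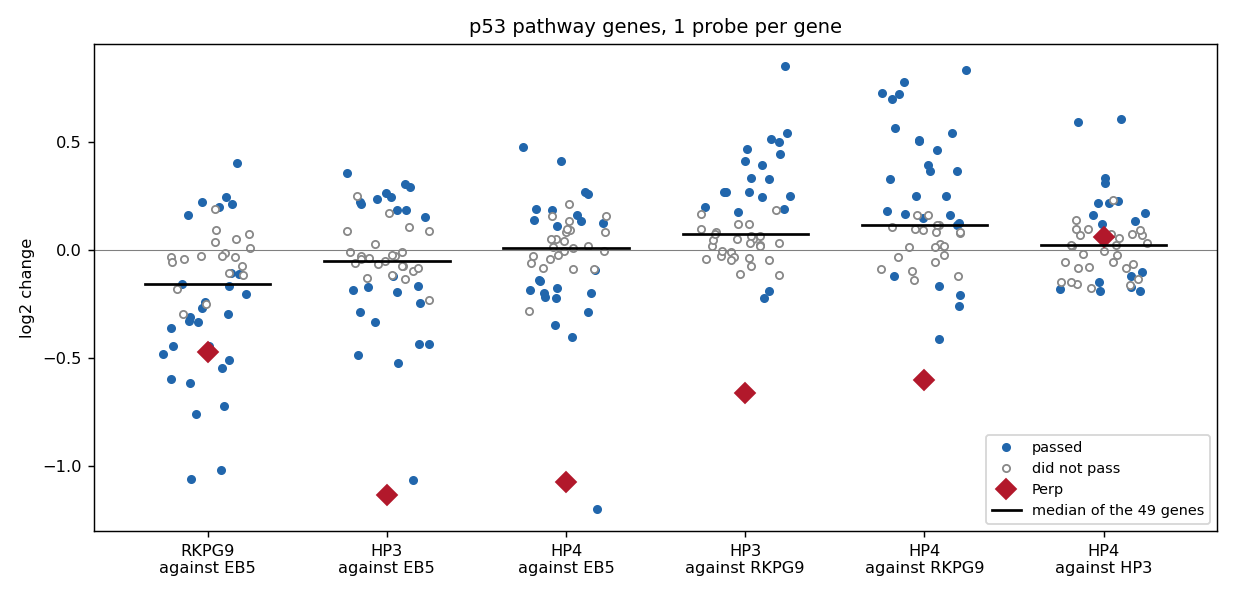
Log2 changes of the 49 p53 pathway genes, 1 probe per gene, in the 6 comparisons; filled points passed, open points did not, black lines are medians over the 49 genes and the red diamond is Perp. Perp is the lowest gene in HP3 against EB5 and in HP3 and HP4 against RKPG9, and lies at 0.06, among the genes that did not pass, in HP4 against HP3.

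Among the 14 measured p53 regulators, 5 rose and none fell in HP3 against EB5 (median 0.10), and 7 rose and 2 fell in HP4 (median 0.10), beside 30.5% and 44.9% of all probes passing. Sirt1, a deacetylase that acts on p53, rose by 0.36 ± 0.06 (SE) in HP3, but its other probe gave -0.01 there. In HP4 its brighter probe rose by 0.19 (-0.17 under median centring) while the other fell by 0.16. That rise in HP4 was lost without EB5 replicate 2 (adjusted p = 0.075) or 3 (adjusted p = 0.071) and without HP4 replicate 2 (adjusted p = 0.11) or 3 (adjusted p = 0.083). Chek2, a DNA damage kinase that phosphorylates p53, rose by 0.29 ± 0.04 in HP3 at its brighter probe, with -0.01 at the other, and was at 0.11 under median centring (adjusted p = 0.18). Pml, the organiser of nuclear bodies that p53 visits, rose by 0.26 ± 0.03 in HP3 and by 0.16 ± 0.03 in HP4, and at its other probes by 0.25 and 0.26 in HP3. In HP4 those other probes gave 0.26, which passed, and 0.025 (adjusted p = 0.70), and the brighter probe in HP3 was at 0.15 under median centring (adjusted p = 0.073). Hipk2, a kinase that marks p53 for apoptosis, rose by 0.26 ± 0.04 in HP4, where median centring turned it to -0.19 (adjusted p = 0.0085), and neither of its 2 other probes passed (0.14 and -0.0076).

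Of 7 cell cycle arrest targets, 5 fell in HP3 and 4 in HP4 against EB5 and none rose (medians -0.20 and -0.18), while 4 rose and none fell in either line against RKPG9 (medians 0.25 and 0.36). Over all probes 30.5% and 44.9% passed against EB5 and 22.7% and 40.0% against RKPG9. Plk2, a kinase of the stressed cell cycle, fell by 0.43 ± 0.04 (SE) in HP3 and 0.22 ± 0.04 in HP4 against EB5, and rose by 0.32 and 0.54 against RKPG9; the HP4 fall did not pass in the Cy3 channel alone (-0.08). The others with the largest falls were Cdkn1a and Btg2.

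Of 16 apoptosis targets, 5 rose and 5 fell in HP3 against EB5 (median -0.10), and 3 rose and 3 fell in HP4 (median 0.09), beside 30.5% and 44.9% of all probes passing. Beside Perp, Igfbp3, a secreted binder of insulin-like growth factors, passed by more than 2-fold, and it fell by 1.06 ± 0.06 (SE) in HP3 and 1.199 ± 0.06 in HP4. Igfbp3 was also 1.06 lower in RKPG9, and against RKPG9 it differed by -0.01 in HP3 and -0.14 in HP4, neither of which passed, whereas Perp passed in both. Ier3, an early response gene, fell by 0.43 ± 0.10 in HP3 against EB5 with -0.13 in the Cy3 channel alone and -0.20 when background was not subtracted, neither of which passed. Casp1, the inflammatory caspase, was not well above background on any HP3 or HP4 array, so no fold is given.

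Of 12 targets of repair, metabolism and survival, 1 rose and 4 fell in HP3 against EB5 (median -0.04), and 1 rose and 5 fell in HP4 (median -0.05), counts near the 30.5% and 44.9% of all probes that passed. Gpx1, a glutathione peroxidase that removes hydrogen peroxide, fell by 0.52 ± 0.04 (SE) in HP3, 0.40 ± 0.04 in HP4 and 0.48 ± 0.04 in RKPG9. Tap1, a peptide transporter of antigen presentation, fell by 0.33 ± 0.05 in HP3 and was at 0.01 in the Cy3 channel alone. Cd82, a tetraspanin, fell by 0.29 ± 0.05 in HP3 and 0.22 ± 0.05 in HP4, where it was at 0.06 without background subtraction, and Cy3 signals alone gave -0.16 in HP3 (adjusted p = 0.20). Sesn3, a second sestrin, rose by 0.27 ± 0.05 in HP4 and was at -0.24 under median centring.

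Perp is also a desmosome protein. Of 6 measured desmosome genes, 4 fell and none rose in HP3 against EB5, while 5 fell and 1 rose in HP4. The medians were -0.15 and -0.31, beside 30.5% and 44.9% of all probes passing. The 1 that rose was Jup, at 0.21 (adjusted p = 0.0017), while its other probe gave -0.27 (adjusted p = 0.0033). Dsp, desmoplakin, which ties desmosomes to intermediate filaments, fell by 0.93 ± 0.04 (SE) in HP3, 0.96 ± 0.04 in HP4 and 1.13 ± 0.04 in RKPG9. Against RKPG9, Dsp rose by 0.21 ± 0.04 in HP3 and by 0.18 ± 0.04 in HP4, where median centring turned the HP4 value to -0.25 (adjusted p = 0.0091) and left HP3 at 0.13 (adjusted p = 0.29). Without background subtraction HP4 was at 0.069 (adjusted p = 0.069). Dsg2, a desmosomal cadherin, fell by 0.47 ± 0.09 in HP4, with -0.05 in HP3. Dsc1, another desmosomal cadherin, fell by 0.37 ± 0.08 in HP3 and 0.39 ± 0.08 in HP4, with 0.09 in HP4 under median centring and -0.04 and -0.18 at its other probe. Both calls were also lost in the Cy3 channel alone, in the deposited table, with an offset of 0 and from the processed signals, and that in HP3 under median centring (-0.16, adjusted p = 0.25). Pkp2, a plakophilin that links the cadherins to Dsp, fell by 0.19 ± 0.05 in HP3. That call was lost without EB5 replicate 3 (-0.18, adjusted p = 0.055) or HP3 replicate 1 (-0.19, adjusted p = 0.051). It was also lost in the deposited table and from the processed signals (-0.17, adjusted p = 0.058 in each). The other Pkp2 probe gave -0.05 in HP3 (adjusted p = 0.71) and -0.22 in HP4 (adjusted p = 0.052). Against RKPG9, 2 of the 6 desmosome genes rose and none fell in HP3, and 2 rose and 2 fell in HP4. Over all probes 22.7% and 40.0% passed there.

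Of 4 measured genes of the Pmp22 and Perp families, Perp and Emp3, an epithelial membrane protein, fell in both Rex1-/- lines against EB5. Over all probes 30.5% passed in HP3 and 44.9% in HP4. Tmem47 passed in neither line. Pmp22 had 1 usable EB5 array and differed by -0.31 in HP3 and 0.13 in HP4. Emp3 fell by 0.85 ± 0.06 (SE) in HP3 and 0.44 ± 0.06 in HP4, where it was at 0.24 without background subtraction (adjusted p = 0.040). Against RKPG9, Emp3 differed by 0.12 in HP3 (adjusted p = 0.17) and rose by 0.53 in HP4.

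Some markers of other cell types changed against EB5. Of 7 measured trophoblast markers, 4 fell and none rose in HP3 and in HP4 against EB5, beside 30.5% and 44.9% of all probes passing; Krt18, a keratin of simple epithelia, changed by -2.60 in HP3 and -2.10 in HP4, and Krt7 by -1.25 and -1.01. The mean log2 ratios of the 7 markers ran from -1.54 to 3.10 in EB5, -3.08 to 3.41 in RKPG9, -3.16 to 3.25 in HP3 and -2.66 to 2.30 in HP4, and 6, 5, 5 and 5 of the 7 were well above background on all 3 arrays of EB5, RKPG9, HP3 and HP4. Gata3, a trophoblast transcription factor, fell by 0.63 in HP3 and did not pass in HP4. Tfap2c, which ES cells also express, fell by 0.80 in HP4 and did not pass in HP3. Eomes and Hand1 passed in neither line. Of 3 measured mesenchymal markers, 3 fell in HP3 and 2 in HP4. Vim is counted here, but its probe was saturated in Cy5 on all 12 arrays and no size is given for it. Acta2 fell by 0.96 in HP3 and 0.60 in HP4, the last at -0.08 without background subtraction. Col1a2 fell by 0.30 in HP3, with 0.04 in the Cy3 channel alone and -0.20 without EB5 replicate 2 (adjusted p = 0.075). Of 8 endoderm markers, 2 passed as lower in HP3 (Dab2 and Foxa2), and 2 as higher (Gata6 and Sox7) and 1 as lower (Afp) in HP4. These counts are near the 30.5% and 44.9% of all probes that passed. Foxa2 was not well above background in EB5 or HP3. Dab2 was at -0.22, a call lost with any 1 of the 6 arrays left out (adjusted p = 0.051 to 0.14), in the Cy3 channel alone (-0.10) and without background subtraction (-0.028). Gata6 was at 0.44, lost in the Cy3 channel alone (0.086, adjusted p = 0.41), in the deposited table, with an offset of 0 and from the processed signals. Sox7 was at 0.22, and at 0.030 without background subtraction (adjusted p = 0.054). Afp was at -0.17 (0.14 under median centring), lost without EB5 replicate 2 (adjusted p = 0.057) or 3 (adjusted p = 0.094) and without HP4 replicate 2 (adjusted p = 0.064) or 3 (adjusted p = 0.056).

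Within the session, where Perp fell in both lines, Krt18 and Krt7 did not pass as lower. Against RKPG9, Krt18 differed by -0.08 in HP3 (adjusted p = 0.41) and rose by 0.42 in HP4, which median centring moved to -0.02. Of the 7 trophoblast markers, none rose and Gata3 fell in HP3 against RKPG9 (by 0.23), and 3 rose and Tfap2c fell in HP4 (by 1.11). Of the 3 mesenchymal markers, 1 rose in HP3 and 3 rose in HP4, Vim among them (its HP4 call was lost under median centring). Over all probes 22.7% passed in HP3 and 40.0% in HP4 against RKPG9. The part of other cells in the differences from EB5 was not tested, and in bulk RNA fewer cells of a type cannot be told apart from less RNA per cell. Among the 7 measured ES cell markers, Nanog (0.36) and Esrrb (0.35) rose in HP3 against EB5, where 30.5% of all probes passed. In HP4 against EB5, where 44.9% passed, Klf4 fell by 0.62 and Utf1 rose by 0.21. Of these, Nanog was at -0.36 in the Cy3 channel alone (adjusted p = 0.012) and did not pass without background subtraction (0.10, adjusted p = 0.17). Utf1 was at -0.41 under median centring (adjusted p = 0.00019). Esrrb had 2 usable EB5 arrays, and stood at 0.24 without EB5 replicate 3, which left 1. Its call was lost without HP3 replicate 2 (0.28, adjusted p = 0.063) and in the Cy3 channel alone (0.098, adjusted p = 0.65). It was also lost under median centring (0.21, adjusted p = 0.12) and without background subtraction (0.17, adjusted p = 0.30). The other Esrrb probe gave 0.057 in HP3 against EB5 (adjusted p = 0.71).

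The 5 named probes whose log2 ratios over the 12 arrays ran most like Perp, among 6890 compared, were those of Ywhab, Baz1a, Anxa3, Dnpep and Slc25a20, with Pearson r of 0.988 to 0.991. The points share their arrays, lines and extraction session, and the value is a description. Anxa3, an annexin, had the widest steps, with mean log2 ratios of -2.62 (EB5), -4.06 (RKPG9), -5.35 (HP3) and -5.13 (HP4). Slc25a20, the mitochondrial carnitine carrier, stood at 1.78, 1.00, 0.33 and 0.23 in the same order. Baz1a, a chromatin remodelling subunit, stood at -0.48, -0.75, -1.18 and -1.19. The 9 other probes of the set had r of -0.23 (Trp53) to 0.73 (Cdkn1a) with Perp, and none was among these 5.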

How the data were processed

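Gene expression was measured on 12 two-colour Agilent arrays, 3 per line. The deposited intensities are spot mean and local background signals from Agilent Feature Extraction 7.5.1, per the file headers; the authors' table holds log10 values, whose column medians were 2.87 to 2.88. Those values equalled the reversed scanner log ratio plus 1 constant per probe within 0.01 for 91.0% to 91.2% of probes; what set the constant is not given in the sources used here. Here, signals were corrected with normexp (offset 50) and normalised by loess in limma 3.58.1 (R 4.3.3), control spots and outlier flags having weight 0 in the loess and flagged spots set to missing. Log2 Cy3/Cy5 ratios were fitted over all 12 arrays (8 residual and 3.43 prior degrees of freedom), with Benjamini-Hochberg adjustment over all probes. There was no dye swap, so that a dye effect shared by all arrays cancels only in differences between lines. Replicate arrays correlated at 0.980 to 0.993, and at most 0.0296% of Cy3 signals were identical in a pair. The number of arrays limits the precision.

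Symbols were updated through RefSeq (GRCm38.p6); 11082 of 20280 gene probes have no gene name, and 1 probe name repeated on 91 spots was left out. The brightest probe stood for a gene in counts. Named genes were the rule's probes, up to 3 passing list members of largest change in HP3 and in HP4 against EB5, and the 5 probes most like Perp. The members, lists and comparisons were chosen with earlier results of these data known. The fit was tested on simulated arrays with independent noise around 1 mean per probe, and set falls in HP3 only. In HP3 against EB5 it called 11 of 20034 unchanged probes, 13 of 50 lowered by 0.2 and 50 of 50 lowered by 1.2. Those arrays held no session effect, so the simulation does not show how calls behave under one. Alternatives were processed signals, offset 0, no background subtraction, median centring, Aquantile, Cy3 alone with quantile normalisation, a filter on dim probes, keeping outlier spots, the deposited table, only the compared lines, a replicate block and each array left out.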

Additional observations from a re-analysis of the deposited data

Results flagged for a closer look

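The changes of the 2 Rex1-/- lines against EB5 differed for 2 probes of the set, by the test of HP4 against HP3. For Trp53 the change in HP4 less that in HP3 was 0.16 on the log2 scale (limma adjusted p = 0.021). For Mdm2 it was -0.19 (adjusted p = 0.015). Both calls were lost with some single arrays left out, as the results give. The other 8 probes of the set did not pass this test.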

How the results depend on the processing

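Each Perp change was recomputed under 17 alternatives per comparison, 102 in all, and 100 kept direction and call. The exceptions were both in HP4 against HP3: -0.37 (past the threshold) with median centring in place of loess, and 0.075 (past the threshold) without background subtraction. Aquantile scaling between arrays leaves log ratios as they are by construction. The filter on dim probes, the fit of only the compared lines and the replicate block also left each Perp estimate as it was, so that only the call could change. The deposited table and the processed signals gave nearly the same values (both -1.17 in HP3 against EB5) and are not separate checks. The number of p53 pathway genes that passed stayed within 1.5 times the reported count in 96 of 102 recomputations. It moved to 13 (reported 21) in HP3 against RKPG9, to 39 (25) in HP4 against EB5 and to 37 (18) in HP4 against HP3 with median centring, to 30 in HP4 against HP3 without background subtraction, and to 5 in HP4 against HP3 and 18 (28) in HP4 against RKPG9 in the Cy3 channel alone. Over the other probes named, 1747 recomputed values kept direction and call, 126 lost the call, 37 gained it and 78 changed sign. The cause was not tested.

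In the Cy3 channel alone, the sign turned for HP3 against EB5 Mdm2 (0.019), Col1a2 (0.039), Sesn1 (0.061), Nanog (-0.36), Tap1 (0.011), Ccng1 (A_65_P14228) (0.040), for HP4 against EB5 Ccng1 (A_65_P01301) (0.015), Bax (0.082), Ccng1 (A_65_P14228) (0.23), for RKPG9 against EB5 Sesn1 (0.15), Trp53 (-0.13), for HP3 against RKPG9 Sesn1 (-0.084), Cdkn1a (0.050), Btg2 (A_65_P03522) (-0.077), for HP4 against RKPG9 Sesn1 (-0.14), Cdkn1a (-0.11), Btg2 (A_65_P03522) (-0.067) and for HP4 against HP3 Sesn1 (-0.053), Ccng1 (A_65_P01301) (0.094), Cdkn1a (-0.16), Bax (0.084). With median centring in place of loess, the sign turned for HP3 against EB5 Trp53 (0.056), Btg2 (A_65_P03522) (0.11), for HP4 against EB5 Utf1 (-0.41), Hipk2 (-0.19), Dsc1 (0.094), Btg2 (A_65_P03522) (0.37), Sesn3 (-0.24), Afp (0.14), Sirt1 (-0.17), for HP3 against RKPG9 Mdm2 (-0.021), Btg2 (A_65_P14971) (-0.056), for HP4 against RKPG9 Cdkn1a (-0.35), Krt18 (-0.015), Btg2 (A_65_P14971) (-0.36), Bax (-0.43), Ccng1 (A_65_P14228) (-0.13), Dsp (-0.25) and for HP4 against HP3 Cdkn1a (-0.23), Btg2 (A_65_P14971) (-0.30), Ccng1 (A_65_P14228) (-0.24). Without background subtraction, the sign turned for HP3 against EB5 Btg2 (A_65_P03522) (3.3e-05), for HP4 against EB5 Emp3 (0.24), Btg2 (A_65_P03522) (0.0075), Cd82 (0.058), Sirt1 (-0.13), for HP3 against RKPG9 Mdm2 (-0.011), Krt18 (0.043) and for HP4 against HP3 Ccng1 (A_65_P14228) (-0.10). With an offset of 0, the sign turned for HP4 against EB5 Sesn1 (-0.21), Ccng1 (A_65_P14228) (0.0031), for HP3 against RKPG9 Sesn1 (-0.045), Btg2 (A_65_P03522) (-0.026), for HP4 against RKPG9 Sesn1 (-0.11), Cdkn1a (-0.022), Btg2 (A_65_P03522) (-0.087) and for HP4 against HP3 Sesn1 (-0.061), Bax (0.0041), Btg2 (A_65_P03522) (-0.061). From the scanner's processed signals, the sign turned for HP4 against EB5 Sesn1 (-0.15), Ccng1 (A_65_P14228) (0.041), for HP3 against RKPG9 Sesn1 (-0.073), Btg2 (A_65_P03522) (-0.21), for HP4 against RKPG9 Cdkn1a (-0.044), Btg2 (A_65_P03522) (-0.14) and for HP4 against HP3 Bax (0.00015). In the authors' table, the sign turned for HP4 against EB5 Sesn1 (-0.15), Ccng1 (A_65_P14228) (0.041), for HP3 against RKPG9 Sesn1 (-0.073), Btg2 (A_65_P03522) (-0.21), for HP4 against RKPG9 Cdkn1a (-0.044), Btg2 (A_65_P03522) (-0.14) and for HP4 against HP3 Bax (0.00022). With 1 array left out at a time, signs turned for Sesn1 for HP3 against EB5 from -0.087 to 0.019, Trp53 for HP3 against EB5 from -0.050 to 0.015, Cdkn1a for HP3 against RKPG9 from -0.11 to 0.0033 and Ccng1 (A_65_P14228) for HP4 against HP3 from -0.010 to 0.066.

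With the replicate number as a block, the Perp changes were the same and each kept its call (adjusted p of 1e-07 in HP3 and 9.6e-08 in HP4 against EB5, 1.7e-06 and 2.1e-06 against RKPG9, 8.6e-06 in RKPG9 against EB5 and 0.24 in HP4 against HP3). The p53 pathway counts under the replicate block were 25, 27 and 30 for HP3, HP4 and RKPG9 against EB5, 22 and 30 for HP3 and HP4 against RKPG9, and 17 for HP4 against HP3. Deviations from the line means correlated at -0.17 to 0.20 between same-numbered arrays (median 0.06), and 4 of 18 such pairs were over 0.1. Between differently numbered arrays of other lines the median was -0.01, and 4 of 36 pairs were over 0.1. Correlations this weak do not decide whether the numbers pair the arrays. Probes near the local background, such as the dimmer Btg2 probe and Casp1, are limited by signal.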
